A study of Mus musculus with 8 samples.

Results

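The polymerase III genes examined here are 10: those of the subunits Polr3a, Polr3b, Polr3c, Polr3d, Polr3e and Polr3g, of the initiation factors Brf1, Brf2 and Gtf3c1, and of the repressor Maf1. All peaks with a centre inside the span of one of these genes on GRCm38, or within 20 kb of it, were taken. That gave 90 of the 134407 peaks of the series. Of these, 41 had no other protein-coding gene nearer and are called assigned peaks. The other 49 were nearer to another gene and are given under that gene's name.

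The data are ATAC-seq, in which the Tn5 transposase cuts open chromatin, from wild-type E14 mouse embryonic stem cells grown on gelatin with serum and LIF. The 4 control samples are labelled only as the control condition, with no vehicle named. The 4 paused samples had 24 h of INK128, which blocks the mTOR kinase, at 200 nM. Each library came from 50000 live cells. The labels do not say that replicates came from separate cultures, so that p-values measure the spread between these samples, which may be technical. As each library is a bulk of cells, a site open in more cells and a site more open in each cell cannot be told apart. E14 is 1 cell line.

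Reads in peaks ran from 4434037 (control replicate 3) to 21161767 (control replicate 1), and the values summed to between 7.32e+06 and 7.65e+06 in control samples and 8.06e+06 and 8.64e+06 in paused samples. Of 6 stem cell marker genes 4 had a start-site peak, and all 6 had assigned peaks, 4 to 38 each. Of 11 markers of other lineages 6 had a start-site peak, and all had assigned peaks too, 2 to 8 each. The stem cell markers reached higher counts, but the ranges overlap, so that these counts alone do not set the cell type apart. Whether depth or the higher sums have a part in the changes was not tested.

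RNA polymerase III makes tRNAs, 5S rRNA and other short RNAs such as U6 and the RNA parts of RNase P and RNase MRP. At tRNA genes the factor TFIIIC, whose largest subunit is Gtf3c1, binds the internal A and B boxes and brings in TFIIIB with its subunit Brf1. Brf2 takes the place of Brf1 at genes of the U6 kind, which have no internal boxes. Maf1 binds the polymerase and shuts it down when mTOR complex 1 no longer phosphorylates it.

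The promoters of 3 genes are printed to show the bases before their starts, which their start-site peaks cover only in part. None of these 3 peaks was called (Polr3d, with the only start-site peak called, has no entry in the promoter table). Polr3e is the only one of the 10 whose start-site peak had a lower mean in paused samples, Polr3b had the highest change among the 5 genes with a sequence, and Polr3g encodes the subunit form of pluripotent cells. The sequences are the 250 bases before the RefSeq start on GRCm38.p6, 5′ to 3′ along the gene, and lie at chr7:120917528-120917777 (plus strand), chr10:84622048-84622297 (plus strand) and chr13:81711014-81711263 (minus strand). Capitals mark matches to the motifs named in the next paragraph.
Polr3e: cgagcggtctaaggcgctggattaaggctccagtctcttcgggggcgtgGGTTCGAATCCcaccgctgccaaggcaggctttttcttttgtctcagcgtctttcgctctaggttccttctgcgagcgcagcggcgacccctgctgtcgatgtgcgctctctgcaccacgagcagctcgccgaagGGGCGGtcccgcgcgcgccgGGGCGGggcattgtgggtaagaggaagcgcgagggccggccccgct
Polr3b: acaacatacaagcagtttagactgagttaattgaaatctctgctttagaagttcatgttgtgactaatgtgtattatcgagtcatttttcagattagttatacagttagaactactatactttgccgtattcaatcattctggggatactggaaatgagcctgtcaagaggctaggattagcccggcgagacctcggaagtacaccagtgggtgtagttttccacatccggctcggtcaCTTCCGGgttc
Polr3g: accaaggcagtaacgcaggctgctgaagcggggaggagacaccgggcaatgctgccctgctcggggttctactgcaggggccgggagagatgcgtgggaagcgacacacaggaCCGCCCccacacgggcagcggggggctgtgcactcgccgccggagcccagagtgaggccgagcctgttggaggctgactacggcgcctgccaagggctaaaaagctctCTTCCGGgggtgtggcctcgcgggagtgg

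The capitals in Polr3e are a B box (a motif of tRNA genes that TFIIIC binds, first base 201 bases before the start) and a pair of GC boxes (GGGCGG). Those in Polr3b and Polr3g include an ETS motif (CCGGAAG, read here from the other strand), 11 and 29 bases before the start, and in Polr3g a GC box on the other strand. Of 32851 promoters of this length, 0.103% held the B box on either strand, 32.7% the GC box and 6.91% the ETS motif. The E-box CACGTG was found in the promoter of Polr3c and in 6.02% of all promoters. The other motifs searched on both strands were the NRF1 and YY1 motifs, CCAAT and TATAAA, of which only CCAAT had a match, in Gtf3c1. The B box in Polr3e and the ETS motif in Polr3g lie outside the start-site peaks of these genes. The B box in Polr3e belongs to a tRNA gene. The gene n-TLaag4 (chromosome 7, 120917517 to 120917598) ends 180 bp before the start of Polr3e, and its last 71 bases open the printed sequence. It was the only tRNA gene in any of the 10 windows.

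All 10 genes had a peak centred within 1 kb of their start, taken from RefSeq promoters for 5 genes and, for Polr3a, Polr3d, Brf1, Brf2 and Maf1, from whichever gene end was nearer to a peak. For those 5 the choice of end favours finding a peak there. Values are deposited reads per peak, scaled by the authors with 1 factor per sample. As all peaks are 201 bp wide, they are compared between genes without a correction for width. Base content also differs between the sites and was not corrected for. In control samples the start-site peak of Maf1 was the strongest, with 481 ± 41.9 (SD, n = 4). By the mean of all 8 samples it was stronger than the start-site peak of 99.8% of 14333 protein-coding genes, which share 13315 distinct peaks. Next came Polr3g, Gtf3c1, Brf1, Polr3d, Polr3e, Polr3b and Polr3c, from 318 ± 41.7 down to 243 ± 34.1. Each step between neighbours in that order was smaller than the larger of their SDs. Polr3a followed with 148 ± 12.7 and Brf2 with 121 ± 6.69 (SD, n = 4). The steps from Maf1 to Polr3g, from Polr3c to Polr3a and from Polr3a to Brf2 were larger than the SDs on both sides added together.

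**Figure D1:**
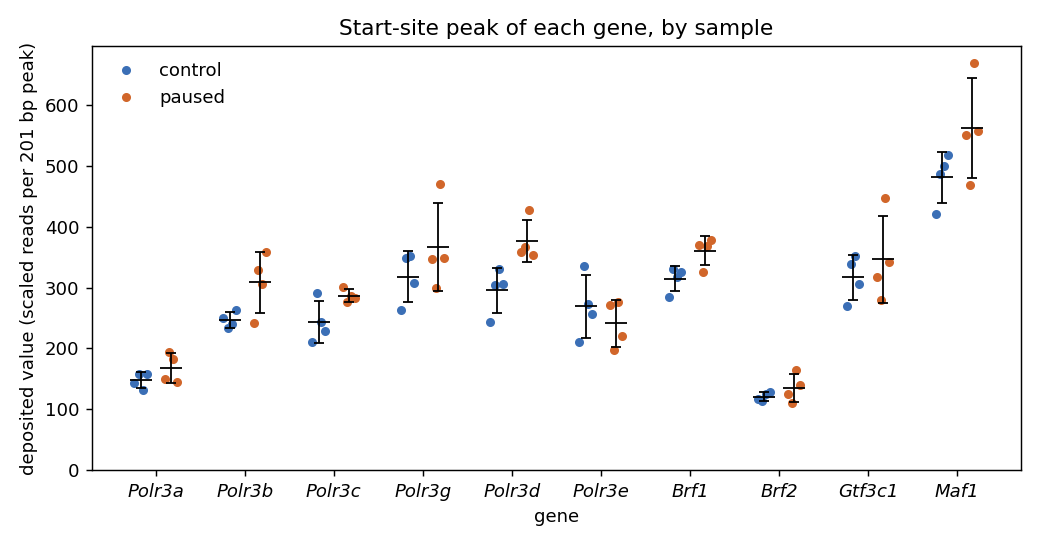
Deposited value (scaled reads per 201 bp peak, linear axis from 0) of the start-site peak of each of the 10 genes. Points are the 4 control and 4 paused samples, and black bars the mean ± SD; only for Polr3d do the paused values all lie above the control values.

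In paused cells 9 of the 10 start-site peaks had a higher mean and 1, that of Polr3e, a lower one, while after loess correction those of Polr3a, Polr3g, Brf1, Brf2 and Gtf3c1 were below 0 too. Only that of Polr3d rose by the test, a limma-trend fit of log2(value + 1) over 127402 peaks with Benjamini-Hochberg adjusted p under 0.05. Over the start-site peaks of all protein-coding genes, 11.0% were called higher and 0.628% lower. The median log2 change of the 10 was 0.19, beside 0.19 for all start-site peaks and 0.10 for all tested peaks. A positive change was found for 86.8% of all start-site peaks.

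Among the catalytic subunits, the start-site peak of Polr3a, the largest subunit, lay 22 bp from the gene end (chromosome 14, 24486992 to 24487192). Its values were 143, 158, 132 and 159 in the control samples and 150.0, 194, 183 and 145 in the paused samples. The groups overlapped, and the change did not pass (log2 change 0.18, SE 0.12, adjusted p = 0.354 by limma-trend). Polr3b forms the other side of the active centre. Its start-site peak (chromosome 10, 84622212 to 84622412) had values of 250.3, 234, 240.4 and 263 in the control samples and 241, 328, 306 and 358 in the paused samples. Of the paused values 3 lay above all control values and that of replicate 1 lay among them (log2 change 0.31, SE 0.11, adjusted p = 0.0639 by limma-trend). It was called without paused replicate 1 (log2 change 0.42, adjusted p = 0.0123), in edgeR with the deposited factors (0.32, 0.0442) and with a mean of at least 50 (adjusted p = 0.0466). Under the scalings that centre the peaks it was not called. The change was 0.21 in edgeR with TMM (adjusted p = 0.213), 0.21 in DESeq2 (0.372), 0.20 after TMM rescaling (0.253) and 0.10 after loess correction (0.610). Without paused replicate 4 it was 0.23 (0.255 by limma-trend).

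Polr3c and Polr3g sit in the 3-subunit part of the enzyme that opens the promoter. The start-site peak of Polr3c (chromosome 3, 96727496 to 96727696) is shared with the neighbouring ubiquitin ligase gene Rnf115, whose span begins 1 bp from the centre. It had values of 210.2, 290.2, 244 and 229 in the control samples and 301, 276, 285 and 282 in the paused samples. The paused values lay close together, and the highest control value stood among them (log2 change 0.24, SE 0.11, adjusted p = 0.135 by limma-trend). Without control replicate 2 the change was 0.33 with an adjusted p of 0.0429. No other alternative called this peak. The change was 0.14 in edgeR with TMM (adjusted p = 0.417) and 0.03 in limma-trend after loess correction (0.873). The start-site peak of Polr3g (chromosome 13, 81711101 to 81711301) had values of 263, 349, 352 and 307 in the control samples and 347, 299.7, 470.1 and 349 in the paused samples. Control replicate 1 was the lowest and paused replicate 3 the highest, and the groups overlapped (log2 change 0.19, SE 0.12, adjusted p = 0.278 by limma-trend). The start of Mblac2 is within 1 kb of the same peak.

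Polr3d and Polr3e form the pair of subunits that acts in initiation and termination, and Polr3d had the only start-site peak called. It (chromosome 14, 70443431 to 70443631) had values of 243, 303, 330.2 and 306 in the control samples and 358, 366, 427 and 353 in the paused samples. All paused values lay above all control values, which was so for 16.9% of start-site peaks in one direction or the other. The mean went from 295 ± 37.2 to 376 ± 34.4 (SD, n = 4 each), and the call was higher (log2 change 0.35, SE 0.11, adjusted p = 0.0253 by limma-trend). The whole microRNA gene Mir320, 82 bp long, lies inside this peak, 39 bp from the end of Polr3d. The call was lost without control replicate 1 (adjusted p = 0.122) and without paused replicate 3 (0.0864), and under all scalings that centre the peaks on no change (0.0960 in edgeR with TMM, 0.332 after loess correction).

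The start-site peak of Polr3e (chromosome 7, 120917613 to 120917813) begins 15 bp beyond n-TLaag4, the tRNA gene in the printed sequence. It had values of 210.2, 336, 273 and 257 in the control samples and 271, 197, 276 and 220.3 in the paused samples. The highest value was in control replicate 2, both groups held values near 200 and near 275, and the change did not pass (log2 change -0.15, SE 0.13, adjusted p = 0.45 by limma-trend). Relative to the median of all peaks the change was -0.25. After loess correction of each sample on peak strength it was -0.36, with an adjusted p of 0.0333 by limma-trend. No other alternative called this peak. The change was -0.24 in edgeR with TMM (adjusted p = 0.197), -0.26 in limma-trend after TMM rescaling (0.182) and -0.25 in DESeq2 (0.378). Without control replicate 2 it was -0.04 with the deposited scaling (adjusted p = 0.880 by limma-trend). Of the 117 tested peaks centred within 200 bp of one of 408 tRNA genes, the peak of Polr3e among them, 41 (35.0%) were called lower and 1 (0.855%) higher, with a median change of -0.28. Over all tested peaks 2.91% were called lower. Whether the tRNA gene has a part in the value at Polr3e was not tested.

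Of the initiation factors, Brf1 had start-site values of 285, 331, 317 and 325 in the control samples and 369, 325, 368 and 378 in the paused samples (chromosome 12, 113000823 to 113001023). Control replicate 1 was the lowest, and paused replicate 2 stood level with 2 control values (log2 change 0.20, SE 0.10, adjusted p = 0.203 by limma-trend). Brf2 had 118, 113, 125 and 128 in the control samples and 126, 110.4, 164 and 141 in the paused samples (chromosome 8, 27128573 to 27128773). The paused values spread more than the control values and reached below them (log2 change 0.15, SE 0.13, adjusted p = 0.483 by limma-trend). The start-site peak of Gtf3c1 (chromosome 7, 125707677 to 125707877) is shared with the neighbouring gene D430042O09Rik. Its values were 270.0, 338, 352 and 306 in the control samples and 317, 279, 447 and 342 in the paused samples, with an overlap of the groups (log2 change 0.12, SE 0.12, adjusted p = 0.552 by limma-trend).

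At Maf1, the start-site peak (chromosome 15, 76351098 to 76351298) lies between Maf1 and Sharpin, a gene of ubiquitin signalling, 96 bp from the one and 88 bp from the other. It had values of 421, 486, 499.5 and 517 in the control samples and 550.2, 468, 669 and 558 in the paused samples. Paused replicate 3 was the highest and paused replicate 2 fell among the control values. The mean went from 481 ± 41.9 to 561 ± 82.3 (SD, n = 4 each), and the change did not pass (log2 change 0.22, SE 0.10, adjusted p = 0.165 by limma-trend). Which of the 2 genes the peak serves cannot be told apart, and the same holds for the start-site peaks of Polr3c, Polr3g and Gtf3c1. No peak lay inside Maf1, which is 3085 bp long, and no peak was assigned to it.

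Of the 40 assigned peaks that were tested, 5 were called higher (12.5%, beside 11.0% of all tested peaks) and 1 lower (2.50%, beside 2.91%). These shares are close to those of all peaks. Of all calls in the series 79.0% were higher with the deposited scaling and 56.3% in edgeR with TMM. In edgeR with TMM 1 assigned peak was called higher and 1 lower, beside 7.13% and 5.54% of all peaks. After loess correction 1 was called higher and 2 lower, beside 5.10% and 3.50%. The groups did not overlap for 7 of the 40 (17.5%), beside 17.4% of all tested peaks. In 6 the paused values were above (13.0% of all) and in 1 below (4.36%). The median log2 change of the 40 was 0.04. The authors' deposited table lists an FDR under 0.05 for 2 of the 41, beside 11.0% of all peaks.

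**Figure D2:**
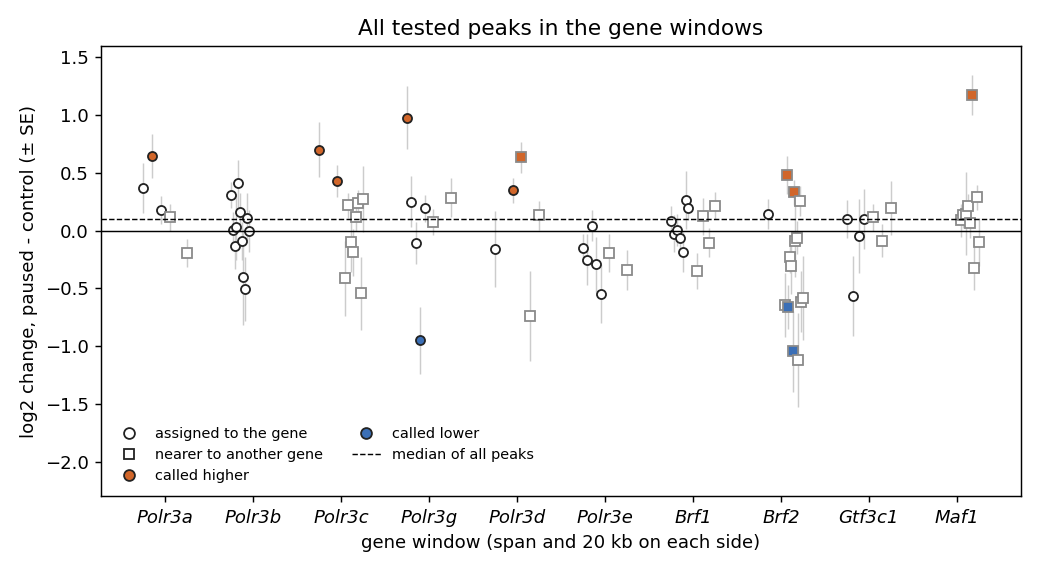
Log2 change (paused minus control, ± SE) of every tested peak in the 10 gene windows, by gene; circles are assigned peaks, squares peaks nearer to another gene, filled symbols those called higher (orange) or lower (blue), and the dashed line the median of all peaks, 0.10. The largest change, 1.18, is in the Maf1 window at a peak inside Gm35339, and the peaks of Polr3e lie at or below 0.04.

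Polr3g held both the largest called rise and the only called fall among the assigned peaks. Polr3g is the form of this subunit used in pluripotent cells, where other cells mainly use Polr3gl. A peak inside the gene 29044 bp from its start (chromosome 13, 81681869 to 81682069) had values of 13.5, 13.1, 8.47 and 17.6 in the control samples and 21.9, 28.4, 27.9 and 26.9 in the paused samples. All paused values were above all control values, and the mean went from 13.2 ± 3.75 to 26.3 ± 2.98 (SD, n = 4 each). The rise (log2 change 0.98, SE 0.27, adjusted p = 0.0124 by limma-trend) is from low counts, 5 to 39 reads per sample, and was called under each alternative in which it was tested except DESeq2 (adjusted p = 0.116). The authors' deposited table gives it a log2 fold of 0.52 with an FDR of 0.0214. A second peak inside the gene, 7661 bp from the start (chromosome 13, 81703252 to 81703452), had values of 33.5, 40.6, 40.6 and 41.1 in the control samples and 27.7, 6.31, 26.4 and 30.5 in the paused samples. Here all paused values were below all control values (log2 change -0.95, SE 0.29, adjusted p = 0.0216 by limma-trend). The size of this fall rests on paused replicate 2, with 4 reads. Without it the change was -0.45 and the call was lost (adjusted p = 0.155), as it was without control replicate 4 (0.0582) and in DESeq2 (0.0792).

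**Figure D3:**
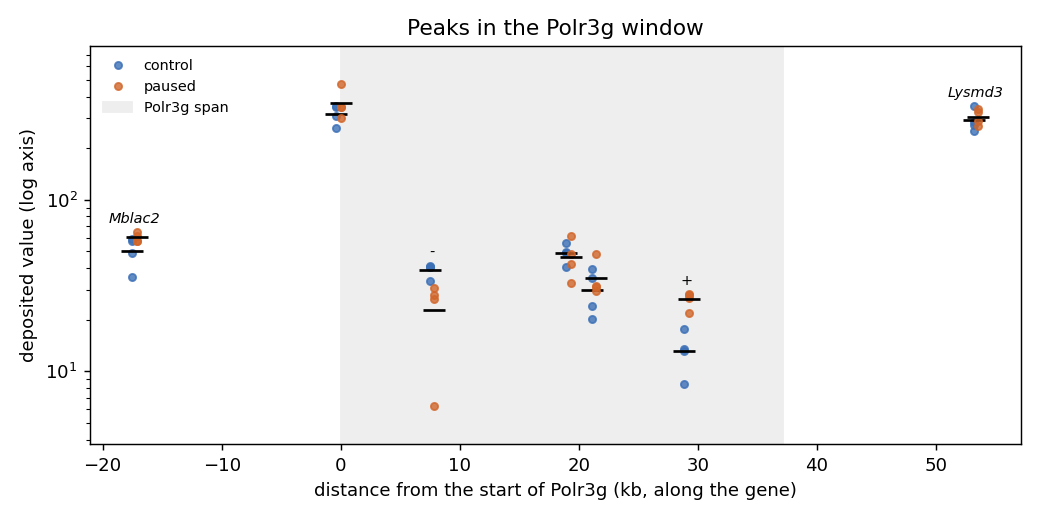
Deposited value (log axis) of the 7 peaks in the Polr3g window against distance from its start along the gene in kb; points are samples, black bars group means, grey the span of Polr3g, and + and - mark calls higher and lower. Both called peaks, inside the gene, are weaker than the start-site peak.

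The other 3 rises away from a start were in Polr3a and Polr3c. The Polr3a peak, 4673 bp inside the gene from its start-site end (chromosome 14, 24482297 to 24482497), had values of 36.3, 32.2, 23.7 and 32.3 in the control samples and 39.2, 61.5, 46.5 and 50.4 in the paused samples. The groups did not overlap (log2 change 0.65, SE 0.19, adjusted p = 0.0202 by limma-trend). It lost the call without control replicate 3, paused replicate 2 or paused replicate 4 (adjusted p up to 0.0890), and under all scalings that centre the peaks (up to 0.251). Polr3c has only 2 assigned peaks, and both rose. The one 8201 bp from its start (chromosome 3, 96719138 to 96719338) had values of 89.9, 83.6, 66.04 and 91.1 in the control samples and 120.0, 110.4, 121 and 94.9 in the paused samples (log2 change 0.43, SE 0.14, adjusted p = 0.0311 by limma-trend). The weaker one, 13033 bp from the start (chromosome 3, 96714306 to 96714506), had 21.4, 19.1, 15.2 and 19.1 in the control samples and 33.5, 22.1, 40.3 and 30.5 in the paused samples (log2 change 0.70, SE 0.24, adjusted p = 0.0416 by limma-trend). In both the groups stayed apart. The first lost its call without control replicate 3 or any of paused replicates 1, 2 and 3 (adjusted p up to 0.132). The second lost it without any 1 sample but paused replicate 2 (up to 0.134). Both lost it in the scalings that centre the peaks, with an adjusted p of up to 0.334 and 0.261.

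The remaining 34 tested peaks did not pass. Polr3b, the longest of the genes with 104887 bp, held 11 of the assigned peaks, whose changes ran from -0.51 to 0.41 with 6 above 0. The 7 of Brf1 ran from -0.19 to 0.26. That at chromosome 12, 112976404 to 112976604 (log2 change -0.07) lies inside Btbd6 as well. The 4 of Gtf3c1, without its shared start-site peak, ran from -0.56 to 0.10. The strongest of these 4 (chromosome 7, 125638961 to 125639161) had the change of 0.10, which fell below 0 under all scalings that centre the peaks. In Polr3e 4 of 5 were below 0, from -0.55 to 0.04. The first intron of Polr3e is known to hold a repeat transcribed by polymerase III against the gene. Whether a peak covers it was not analysed here.

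To give 1 value per gene and sample, the values of all assigned peaks were added up and fitted over 17949 protein-coding genes. These sums rose across the genome with the deposited scaling, with a median log2 change of 0.14, and 27.6% of genes were called higher and 1.34% lower. In edgeR with TMM the median was -0.0025, and 4.15% were called higher and 4.43% lower. After loess correction the shares were 4.13% and 3.85%. Changes of single genes are to be read against that shift. Maf1 had no assigned peak and so no sum.

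Of the other 9 genes 3 were called higher and none lower, with a median of 0.14. The largest change was that of Polr3c, whose sums were 111, 103, 81.3 and 110.2 in the control samples and 153, 132, 161 and 125 in the paused samples. The groups did not overlap (log2 change 0.50, SE 0.13, adjusted p = 0.00511 by limma-trend), and the call stood without any 1 sample (adjusted p up to 0.0255). In edgeR with TMM the change was 0.30 with an adjusted p of 0.117. This sum leaves out the start-site peak shared with Rnf115, and over all peaks in the 20 kb window the change was 0.19 (adjusted p = 0.0119). The sum of Polr3d is mostly its start-site peak and went from 309.9 ± 37.00 to 389 ± 33.4 (SD, n = 4 each, log2 change 0.33, SE 0.09, adjusted p = 0.00862 by limma-trend). That call was lost without control replicate 1 (adjusted p = 0.0516) and in edgeR with TMM (0.121). Polr3a went from 204 ± 17.3 to 250.4 ± 31.2 (SD, n = 4 each, log2 change 0.29, SE 0.10, adjusted p = 0.0331 by limma-trend). Its call was lost without control replicate 1 or 3 or paused replicate 2 or 3 (adjusted p up to 0.114), in edgeR with TMM (0.454) and with a 1 kb window (0.0656). With all peaks in the 20 kb window, also those nearer to another gene, the sum of Polr3a changed by 0.09 (adjusted p = 0.272 by limma-trend). The genes called in that setting were Polr3c, Polr3d and Maf1, 3 of 10, all higher. Of all 19184 genes in that setting 37.6% were called higher and 0.808% lower, with a median change of 0.15.

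Polr3e had the lowest change of the 9 sums. Its sums were 381, 510.0, 449 and 439 in the control samples and 423, 371, 433 and 377 in the paused samples. Of the control sums 3 lay above all paused sums, control replicate 1 lay among them, and the change did not pass with the deposited scaling (log2 change -0.14, SE 0.09, adjusted p = 0.194 by limma-trend). Relative to the median of all genes the change was -0.29. It was called lower in edgeR with TMM (log2 change -0.28, adjusted p = 0.0311), in limma-trend after TMM rescaling (-0.29, 0.0216) and after loess correction (-0.30, 0.0170), and missed the threshold in DESeq2 (-0.28, 0.0558). Under the first 3 of these no other gene of the 9 was called in either direction. The lowest paused sum, of replicate 2, and the highest control sum, of replicate 2, each moved the value: without them it was -0.11 and -0.08 with the deposited scaling.

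The other 5 sums did not pass. Polr3b had a change of 0.14 (adjusted p = 0.131), Polr3g 0.14 (0.209), Brf1 0.06 (0.434) and Brf2 0.10 (0.546). The sum of Polr3g includes its start-site peak shared with Mblac2, and that of Brf1 includes the peak that lies inside Btbd6 as well. For Gtf3c1, whose shared start-site peak is not in the sum, both means were near 109 (adjusted p = 0.991). All 5 were below 0 in limma-trend after TMM rescaling, from -0.14 to -0.01, so that no direction is given for them.

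**Figure D4:**
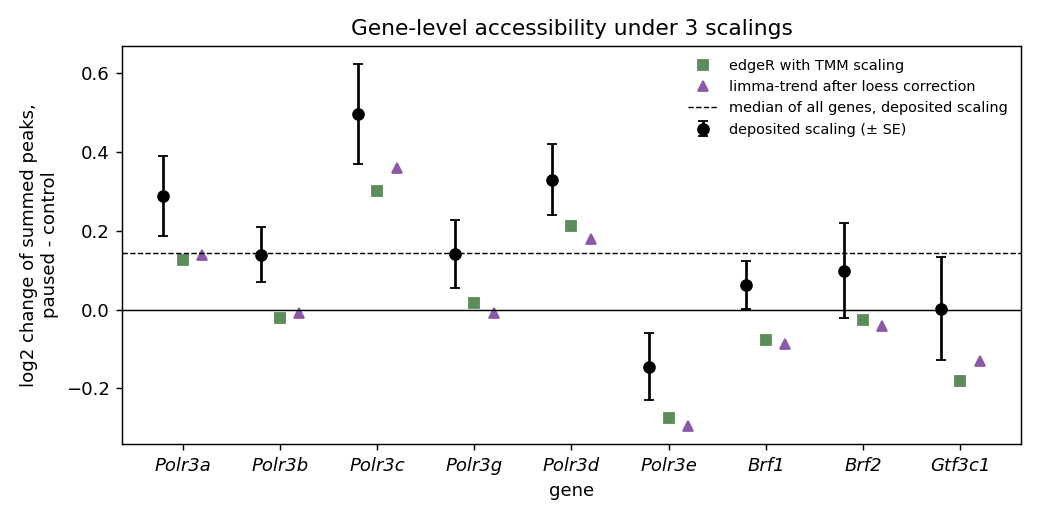
Log2 change of the summed assigned peaks (paused minus control) of the 9 genes that have any; black circles are the deposited scaling with SE, squares edgeR with TMM, triangles limma-trend after loess correction, and the dashed line the median of all genes, 0.14. Polr3e is below 0 under each of them, and Polr3a, Polr3c and Polr3d are above 0 under each.

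The peaks nearer to another gene held 6 calls among 46 tested, 4 higher (8.70%) and 2 lower (4.35%), beside 11.0% and 2.91% of all tested peaks. The largest was in the Maf1 window, 6803 bp beyond the end of Maf1 and inside Gm35339 (chromosome 15, 76361081 to 76361281). Its values were 29.4, 29.9, 27.1 and 29.4 in the control samples and 63.5, 59.9, 68.3 and 76.2 in the paused samples. All paused values were far above all control values, and the mean went from 28.9 ± 1.25 to 66.95 ± 7.02 (SD, n = 4 each, log2 change 1.18, SE 0.17, adjusted p = 1.21e-05 by limma-trend). It was called under each alternative in which it was tested (its mean is under 50), with an adjusted p of at most 0.000362. In the Polr3d window a peak inside Piwil2, a gene of the germline piRNA pathway, rose (chromosome 14, 70429333 to 70429533). Its values were 84.00, 90.8, 76.2 and 82.3 in the control samples and 156, 112, 139.6 and 116 in the paused samples. The groups did not overlap (log2 change 0.63, SE 0.13, adjusted p = 0.00125 by limma-trend), and it too was called under each alternative.

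**Figure D5:**
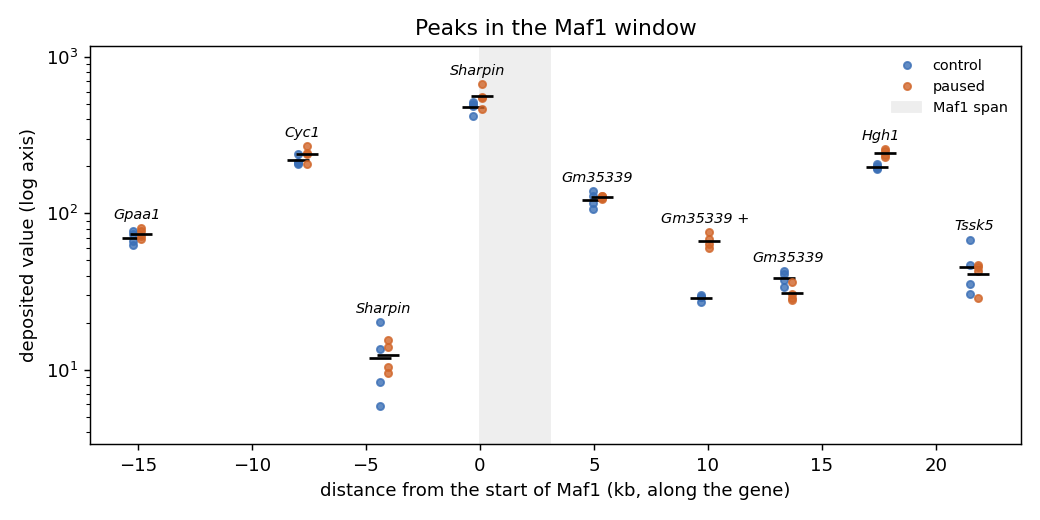
Deposited value (log axis) of the 9 peaks in the Maf1 window against distance from the start of Maf1 along the gene in kb; points are samples, black bars group means, grey the span of Maf1, names the nearer gene, and + a call higher. The start-site peak is the strongest, and at the second peak of Gm35339 all paused samples lie above the control samples.

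Next to Brf2, 4 of the 7 peaks inside the adhesion receptor gene Adgra2 were called, 2 higher and 2 lower. The strongest (chromosome 8, 27120732 to 27120932), 2507 bp from the span of Brf2, went from 295 ± 26.8 to 373 ± 52.2 (SD, n = 4 each, log2 change 0.33, SE 0.11, adjusted p = 0.036 by limma-trend). A rise of 0.48 was found 15770 bp away, and the falls, of -0.66 and -1.04, at 12823 and 5961 bp. The strongest peak lost its call under all scalings that centre the peaks (adjusted p up to 0.429) and without any of 6 single samples. The rise of 0.48 kept it in edgeR with TMM but lost it in DESeq2, in both other centring scalings and without any of 4 single samples (up to 0.233). The fall of -0.66 was lost without control replicate 3 or paused replicate 2 (up to 0.0797), and the weaker peak's fall without any of 6 single samples and in DESeq2 and after loess correction (up to 0.134).

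The rest of the machinery was taken as a list of 26 genes, with the other subunits, TFIIIA, TFIIIC, TFIIIB, the snRNA activating complex and Ssb, a protein that binds the ends of new polymerase III transcripts. All 26 had a start-site peak. Of these 3 were called higher and none lower (11.0% and 0.628% of all start-site peaks), with a median change of 0.18 and 24 of 26 above 0. The share called higher is close to that of all start-site peaks. The 3 genes called, named after their values were seen, belong to TFIIIC. They were Gtf3c4, whose peak is shared with Ddx31 (log2 change 0.44, adjusted p = 0.00876 by limma-trend), Gtf3c2 (0.38, 0.00955) and Gtf3c5 (0.31, 0.0481). Their start-site calls under other scalings are not given here. The largest TFIIIC subunit gene, Gtf3c1, had 0.12, and Gtf3c3 and Gtf3c6 had -0.05 and 0.04.

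Of the list 22 genes had assigned peaks. At the level of sums 6 were called higher and none lower (27.6% and 1.34% of all genes), with a median of 0.17 beside 0.14 for all genes. In edgeR with TMM 0 of the 22 were called in either direction. The smallest adjusted p was for Snapc3, a subunit of the snRNA activating complex, from 796 ± 34.6 to 965 ± 57.7 (SD, n = 4 each; log2 change 0.28, adjusted p = 0.00148). Gtf3c2 followed with 0.32 and Gtf3c4, from 1 weak peak, with 0.73. Polr3gl, the partner form of Polr3g, went from 765 ± 38.1 to 871 ± 71.5 (SD, n = 4 each; log2 change 0.19, adjusted p = 0.0320), with overlapping groups. The sum of Polr3g changed by 0.14 with an adjusted p of 0.209. The difference between the pair was not tested.

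Polymerase III products other than tRNAs were looked at through peaks within 1 kb of 9 such genes, of which 7 had one. Of 9 peaks 1 was called lower and none higher, beside 2.91% and 11.0% of all tested peaks, and 6 had a change above 0. The peak called lower, 965 bp from the Y RNA gene Rny3, had values of 20.7, 29.9, 28.8 and 23.5 in the control samples and 9.23, 18.9, 12.4 and 16.4 in the paused samples. All paused values were below all control values (log2 change -0.84, SE 0.27, adjusted p = 0.0321 by limma-trend). The peak nearer to Rny3, 20 bp away, had a change of -0.46 and did not pass (adjusted p = 0.171). Neither the strongest peak nor that of the RNase MRP RNA passed: that at Rn7s1, a 7SL RNA gene of the signal recognition particle, went from 323 ± 47.5 to 371 ± 57.9 (SD, n = 4 each, log2 change 0.20, SE 0.12, adjusted p = 0.259 by limma-trend), and that at Rmrp from 276 ± 21.4 to 291 ± 39.7 (SD, n = 4 each, log2 change 0.07, SE 0.11, adjusted p = 0.719 by limma-trend). That beside Rpph1, the RNA of RNase P, had a change of 0.14 with an adjusted p of 0.495. No peak lay within 1 kb of Rn7sk or Rnu6.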

How the data were processed

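ATAC-seq libraries of 4 control and 4 paused samples (150 bp paired-end reads, 50000 cells each, per the labels' protocols) were used. FastQC, Trim Galore, Bowtie2 2.4.1, MACS3 3.0.3, DiffBind 3.16.0 and mm10 are named in the submitters' processing notes, without their roles. The authors deposited 1 table of 134407 peaks of 201 bp with a normalised signal per sample, log2 concentrations and log2 folds, and p-values with FDR. Within each sample the deposited signal was a whole multiple of 1 factor for at least 99.8% of values (tolerance 0.0051), so reads per peak were recovered. Depth was 4434037 to 21161767 reads in peaks.

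The signal was tested with limma-trend (limma 3.58.1, R 4.3.3) on log2(value + 1) for peaks with a mean of at least 10, with Benjamini-Hochberg adjustment over all peaks or all genes and a threshold of 0.05. Fold changes are on that scale, which understates the change of weak peaks. Alternatives were a pseudocount of 0.1, no filter, a mean of at least 50, TMM rescaling, loess correction (span 0.3), edgeR 4.0.16 and DESeq2 1.42.0 on recovered reads, a replicate block, other windows (1, 5 or 20 kb), and each sample left out. Gene sums over all peaks in the 20 kb window were added after the values were seen. On simulated peaks the test called 55 of 63 changed by 1.5 on the log2 scale, 40 of 66 changed by 1 and 6 of 66 changed by 0.6, and 1 unchanged peak, among 126846 tested. The simulation had the same dispersion for all peaks, few changed peaks, as many up as down, and no shift between the groups. The data differ in this, so that these counts need not hold for them.

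The genes, lists and motifs were chosen with earlier results of these data known. Named were, for each of the 10 genes, the start-site peak, the strongest assigned peak and each called peak, and up to 3 called genes of the machinery list by adjusted p. Polr3gl and the start-site peaks of TFIIIC genes were named after their values were seen. Gene spans are GRCm38. Promoter sequences are from RefSeq, whose table held 5 of the 10 genes.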

Additional observations from a re-analysis of the deposited data

Results flagged for a closer look

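In 2 of 62 groups of 4 values 1 sample stood apart from the others, both at the Polr3g peak 7661 bp from the start. The check marks about 1 in 20 groups by chance. Among control samples, replicate 1 was the lowest with 33.53, and the others lay between 40.61 and 41.15. Among paused samples, replicate 2 was the lowest with 6.31, and the others lay between 26.38 and 30.46.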

How the results depend on the processing

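With the deposited scaling 17660 peaks were called; DESeq2 called 5794, loess correction 10956, a mean of at least 50 left 10910, and leaving out 1 sample gave 11570 to 15845. Assigned peaks called higher numbered 5, and 0 in DESeq2, 1 in edgeR with TMM, after TMM rescaling and after loess correction, 3 with a mean of at least 50, 9 over all peaks in the windows, and 2 to 4 without 1 sample. Those called lower numbered 1, and 0 in DESeq2 and with a mean of at least 50, 2 after loess correction, 3 over all peaks in the windows, and 0 to 1 without 1 sample. Start-site calls numbered 1, and 0 in DESeq2, edgeR with TMM and after TMM rescaling, 2 in edgeR with the deposited factors, with a mean of at least 50 and under the replicate block (Polr3d and Polr3b each time, the latter with an adjusted p of 0.0260 under the block), and 0 to 2 without 1 sample. Gene sums called numbered 3 (Polr3a, Polr3c and Polr3d, all higher), and 0 in DESeq2. In edgeR with TMM, after TMM rescaling and after loess correction 1 sum was called, that of Polr3e, as lower. Without 1 sample 1 to 4 sums were called, all higher. The cause of these differences was not tested.

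Some changes turned negative. After loess correction the start-site changes were -0.028 for Polr3a, -0.014 for Polr3g, -0.014 for Brf1, -0.055 for Brf2 and -0.093 for Gtf3c1, and without 1 sample that of Gtf3c1 ran from -0.014 to 0.21. In DESeq2, edgeR with TMM, TMM rescaling and loess correction, in that order, gene sums changed by -0.015, -0.020, -0.0072 and -0.0091 for Polr3b, by -0.077, -0.078, -0.084 and -0.088 for Brf1, by -0.027, -0.027, -0.047 and -0.043 for Brf2, and by -0.17, -0.18, -0.14 and -0.13 for Gtf3c1. The sum of Polr3g had -0.0054 after TMM rescaling and -0.0095 after loess correction. The sum of Gtf3c1 also had -0.11 with a 1 kb window and -0.027 in edgeR with the deposited factors, and -0.088 to 0.096 without 1 sample. The strongest assigned peak of Gtf3c1 had -0.045, -0.063, -0.0075 and -0.053 in the same order, and -0.0034 to 0.17 without 1 sample.

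Whether the replicate numbers pair the samples is not settled here, and the main fit is unpaired. The correlations of same-numbered deviations were weak, 0.0790, 0.0358, 0.133 and 0.0395. For replicates 1, 3 and 4 the same number gave the highest correlation in both directions. Control replicate 2 correlated better with paused replicate 1 (0.0703), and paused replicate 2 with control replicate 1 (0.0617). With the replicate block 21994 peaks were called, beside 17660 without it. The median over all peaks was 18 to 29 reads per peak in 7 samples and 91 in control replicate 1, and what depth limits was not tested.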

Other observations

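As a description over 8 samples, which share the treatment and the scaling, the genes whose sums were most like those of Polr3g, out of 17948 compared, were Gabra5 (Pearson r = 0.99), Pitrm1 (0.99) and Prdm13 (0.98). Maf1 had no sum, so its start-site peak was compared with 14332 others, a choice made after the values were seen. The most like were those of Anks1b (0.99), Slc6a17 (0.99) and Pitrm1 (0.99). Both lists are the highest of many values over few samples, so a high r alone shows no link. Among the other 9 genes the likeness to Maf1 ran from 0.28 for Polr3a to 0.91 for Polr3g.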
